A study of Homo sapiens with 18 samples.

Results

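Messenger RNA was measured in 2 forms of the line L3.6pl, human pancreatic cancer cells with high metastatic capacity in mice. GemR is a derivative made resistant to gemcitabine and kept in 64 nM of the drug, and Par is the parental line, which the labels do not describe as kept in it. The comparison described here sets GemR against Par with nothing else between them: both received the control siRNA siCont for 48 h and DMSO (vehicle) for the last 3 h. Its members are the 6 libraries so labelled, 3 of GemR and 3 of Par, out of 18 in the series. The other 12 held 3 libraries each of GemR with siCont and of Par with siCont given 500 nM thapsigargin, which blocks the pumps that fill the endoplasmic reticulum (ER) with calcium, and of GemR with an siRNA against STIM1 in vehicle and in thapsigargin. GemR is a single derivative, and the labels do not say whether it is 1 clone or whether the drug was present during the siRNA treatment. Resistance, drug exposure and any other difference that arose in the derivative cannot be told apart.

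Gemcitabine is a deoxycytidine analogue. Cells take it up through nucleoside transporters, deoxycytidine kinase and further kinases turn it into its active phosphates, and deaminases and nucleotidases inactivate it. Its diphosphate inhibits ribonucleotide reductase, whose large subunit is RRM1, and its triphosphate stops DNA synthesis. STIM1, which lies next to RRM1 on chromosome 11, is the ER calcium sensor that opens ORAI channels of the plasma membrane when the store is empty.

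Reads per library, recovered from the normalized counts (gene read counts divided by a size factor for each library), ranged from 8922439 to 14813197 in the 6 libraries. Of 26485 genes in the table, the 13096 with a mean of at least 10 over the 18 libraries were tested. A log2 fold change is the mean log2(normalized count + 1) of GemR minus that of Par, given with the standard error of the fit. Normalized counts carry the standard deviation (SD, n = 3 in each group), and genes with an adjusted p under 0.05 were called higher or lower (limma, Benjamini-Hochberg over all tested genes). These p-values measure the spread between libraries, which may be technical, since the labels give replicate numbers only. All 7 epithelial markers were expressed in both groups, the 7 acinar and endocrine markers were at 0 in GemR and 6 of them at 0 in Par, and CD68 was the only 1 of 9 immune markers with a mean of at least 10. Of 5 endothelial markers PECAM1 and CDH5 reached that mean, with a summed level of the 5 of 212 to 230 in GemR and 243 to 282 in Par.

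GemR replicate 1 stood apart from its group. The chi-square of its counts per gene was 27.3 and 35.4 against GemR replicates 2 and 3, while the other 4 pairs of like libraries had 3.15 to 4.46. Its deviations from the group mean fell with transcript length, by 0.080 per doubling, with a Spearman correlation across 10501 genes of -0.23. The results below were therefore also computed without it.

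In GemR, 2365 genes (18.1% of those tested) were higher and 2635 (20.1%) lower than in Par, 5000 in all (38.2%). At least 2-fold differences were called for 381 higher genes (2.91%) and 532 lower genes (4.06%), 913 in all (6.97%). The 3 GemR libraries lay above all 3 Par libraries for 2709 genes (20.7%) and below them for 2969 (22.7%). The median log2 fold change over all tested genes was 0.0037. Without GemR replicate 1, 4954 genes were called, of which 4123 were among the 5000 and in the same direction. A fit of the 6 libraries alone called 3129 genes, and edgeR and DESeq2 on the recovered reads of those 6 called 3169 and 3325. The share of called genes is high, so the counts for gene groups below are set against 18.1% higher and 20.1% lower.

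Prostaglandin E synthase, PTGES, which makes prostaglandin E2 from the product of the cyclooxygenases, had the largest positive difference among genes with a group mean of at least 50. Its normalized counts were 3138, 2851 and 2654 in the 3 GemR libraries, against 55.8, 57.9 and 66.3 in the 3 Par libraries. The groups lay far apart, with a log2 fold change of 5.56 ± 0.10 (47.2-fold, adjusted p = 2.79e-18). MAOA, a mitochondrial oxidase of monoamines, had 102, 67.4 and 104 in GemR and 6.09, 2.97 and 1.95 in Par (4.38 ± 0.34, adjusted p = 6.06e-09). The GemR values of MAOA spread more widely, with replicate 2 lowest, yet all stood above Par. MSLN, which encodes the tumour surface antigen mesothelin, had 82.4, 69.2 and 46.4 in GemR and 5.08, 2.97 and 2.93 in Par (3.84 ± 0.26, adjusted p = 7.32e-10). CD70, the ligand of the lymphocyte receptor CD27, had 517, 363 and 358 in GemR and 39.6, 26.7 and 30.2 in Par (3.64 ± 0.22, adjusted p = 1.21e-10). Here GemR replicate 1 was the highest of its group. The remaining genes of the 10 with the highest log2 fold changes were RRM1 and STIM1, the ubiquitin ligase gene TRIM6, LINC01468, LY6K and the transcription factor gene SP6, with log2 fold changes of 3.20 to 4.16.

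At the other end stood CXCL5, a chemokine that attracts neutrophils. It had 8.91, 2.63 and 0.947 normalized counts in GemR and 937, 873 and 786 in Par, a log2 fold change of -7.71 ± 0.46 (209.7-fold lower in GemR, adjusted p = 1.19e-10). Without GemR replicate 1, the highest of its group, CXCL5 was 325-fold lower (-8.35). COL3A1, a fibrillar collagen, had 178, 180.4 and 163 in GemR and 7212, 7679 and 7156 in Par (-5.39 ± 0.12, adjusted p = 6.54e-17). The values within each group of COL3A1 lay close together. C4BPB, a chain of a complement inhibitor, had a log2 fold change of -6.25 ± 0.55 and PLAC8 of -5.24 ± 0.21 (adjusted p = 3.71e-08 and 3.23e-13). Several genes of this end were close to silent in GemR, so that their ratio rests on a handful of reads, and the 95% intervals given for them cover counting error only. LRRC61 had 0 reads in the 3 GemR libraries and 186 in the 3 Par libraries, at least 71.5-fold lower in GemR when 3 reads over the group are taken as the floor. VSTM2L had 2 reads in GemR and 507 in Par, a ratio of Par to GemR of 292 (80.5 to 2420). For the Wnt inhibitor DKK4 the reads were 2 in GemR and 197 in Par, a ratio of 114 (31.0 to 945). For ALDH1A1, a retinaldehyde dehydrogenase often used as a marker of stem-like tumour cells, they were 3 in GemR and 229 in Par, a ratio of 88.0 (29.8 to 430). ST6GALNAC1, which adds sialic acid to mucin-type sugars, averaged 1.35 ± 0.760 in GemR and 119.8 ± 17.0 in Par. CLDN2, a pore-forming claudin, averaged 1.43 ± 1.72 in GemR and 85.7 ± 31.3 in Par.

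**Figure D1:**
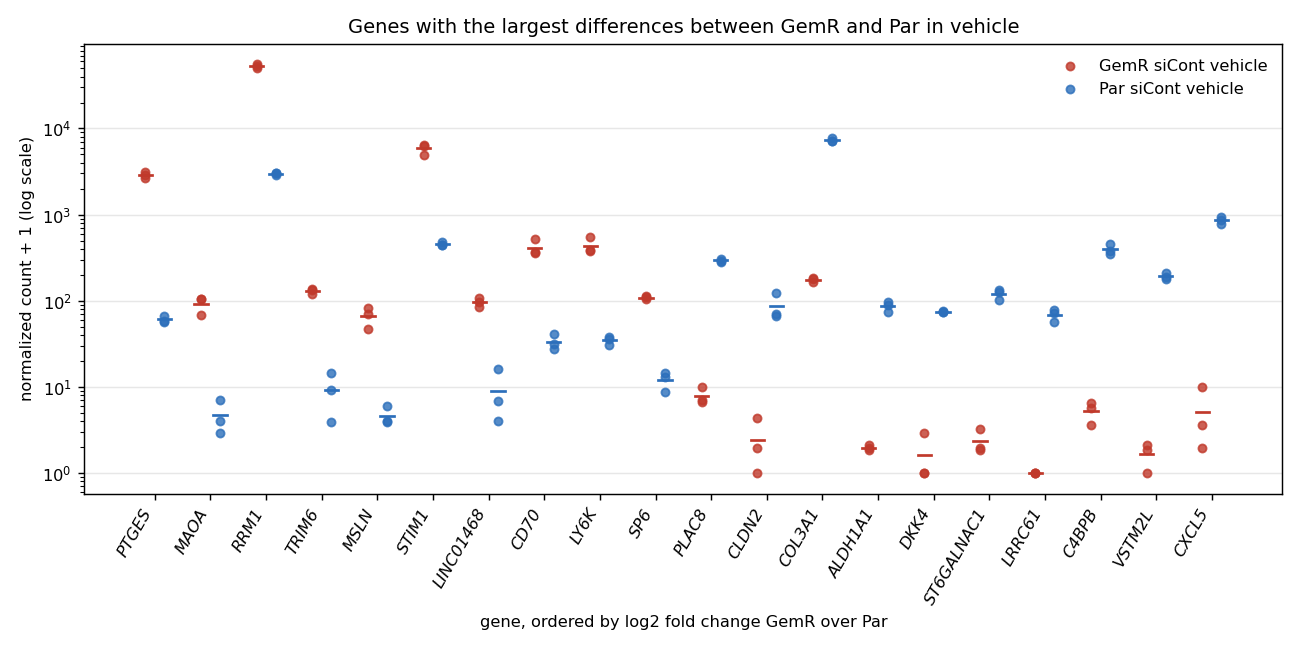
Normalized counts + 1 (log axis) of each library for the 10 genes with the highest and the 10 with the lowest log2 fold change, red for GemR siCont vehicle and blue for Par siCont vehicle, with a line at each group mean. The 3 libraries of each group stand clear of the other group for all 20 genes, and RRM1 has 55344, 50841 and 53625 normalized counts in GemR and 3011, 2868 and 3059.5 in Par.

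STIM1 and RRM1 did not stand alone. STIM1 had normalized counts of 4976, 6294 and 6401 in GemR and 444, 447 and 481 in Par, 12.8-fold higher in GemR (3.68 ± 0.10, adjusted p = 5.14e-16). RRM1 had 55344, 50841 and 53625 in GemR and 3011, 2868 and 3059.5 in Par, 17.9-fold higher (4.16 ± 0.059, adjusted p = 2.44e-20). From STIM1 to ADM, over 6.45 Mb of the short arm of chromosome 11 (GRCh38, GENCODE 29, chr11:3854527-10307397), 36 of 40 tested genes were higher in GemR and 0 were lower, against 18.1% higher over all tested genes. The median log2 fold change of the 40 was 1.83 (3.56-fold), 32 were at least 2-fold higher, and all 36 had GemR libraries that lay above every Par library. The limits of this stretch were chosen after the values were seen, so its count is a description. The 40 genes had a median of 1.86 without GemR replicate 1 and of 1.73 between the thapsigargin libraries of GemR and Par.

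The largest differences lay at the STIM1 end. After RRM1 came TRIM21, an antibody receptor of the cytosol (2.69 ± 0.079), TRIM68 (2.74 ± 0.088) and TRIM6 (4.02 ± 0.36), all ubiquitin ligase genes. TRIM6 had 136, 119 and 134 normalized counts in GemR and 8.12, 13.4 and 2.93 in Par, so its fold rests on a low level in Par. Between 1.57 and 2.59 Mb from RRM1, where TRIM5 and MRPL17 mark the ends, each tested gene had a log2 fold change between 1.67 (TRIM3) and 2.44 (APBB1). Among them are the acid sphingomyelinase gene SMPD1 (1.94 ± 0.13), the integrin-linked kinase gene ILK (2.12 ± 0.068), the transcription factor IID subunit TAF10 (2.06 ± 0.10) and the lysosomal protease gene TPP1 (1.77 ± 0.081). The stretch also holds genes used by every cell, such as the translation factor subunit EIF3F (1.82 ± 0.10) and the ribosomal protein gene RPL27A (1.85 ± 0.13). Toward the ADM end the differences varied from gene to gene, at 2.23 for NRIP3, 0.90 for the nuclear import receptor IPO7, 0.58 for ZNF143, 0.78 for the cell cycle kinase WEE1 and 1.52 for SWAP70. ADM, which encodes the peptide hormone adrenomedullin, had 1.91. The 4 genes without a call were ZNF215 (-0.14 ± 0.17), TUB (0.10 ± 0.13), STK33 (0.21 ± 0.18) and SBF2 (0.34 ± 0.16), the last with an adjusted p of 0.000669 without GemR replicate 1. Of the 40 genes, 11 overlap another gene of the stretch, and the library kit does not mark strand, so reads of overlapping pairs such as TMEM9B and TMEM9B-AS1 cannot be assigned for sure.

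On either side the pattern turned the other way. Of the 65 tested genes between the end of the chromosome arm and STIM1, 43 were lower in GemR and 3 higher, with a median of -0.47. RHOG, the last of them before STIM1, had -0.63 ± 0.087 (adjusted p = 1.19e-05). Among the 40 tested genes after ADM, 25 were lower and 0 higher, also with a median of -0.47, against 20.1% lower over all tested genes. Within 2 Mb of RRM1 on both sides the 21 tested genes divided into 6 higher and 10 lower. The potassium channel gene KCNQ1 was the lowest of them, with normalized counts of 8.91, 7.01 and 1.89 in GemR and 17.3, 28.2 and 30.2 in Par (-2.06 ± 0.39, adjusted p = 0.000375). The files hold RNA only, and DNA copy number was not measured.

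A tally along all chromosomes showed shifts over longer distances, of smaller size. On chromosome 13, 122 of 220 tested genes (55.5%) were higher and 14 (6.36%) lower, with a median log2 fold change of 0.37. It was 0.40 without GemR replicate 1 and 0.27 between the thapsigargin libraries. Chromosomes 5 and 9 had medians of 0.15 each, with 33.8% and 31.2% of tested genes higher. Chromosome 19 leaned the other way, with 361 of 856 tested genes (42.2%) lower, 70 (8.18%) higher and a median of -0.29. The same chromosome had -0.29 without GemR replicate 1 and -0.22 between the thapsigargin libraries. Next came chromosome 2, with 29.9% lower and a median of -0.11. The medians of the other chromosomes lay between -0.07 and 0.08.

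Windows of 15 neighbouring tested genes, started at each gene in turn, located the extremes. The 6 highest and 6 lowest are listed, each overlapping no window already taken. The STIM1 to ILK window had the highest median, 2.12, with 15 of 15 genes higher, and TPP1 to NRIP3 on the same arm followed with 1.82. The next, none overlapping another, were far lower, at 0.59 (SCEL to ABCC4 on chromosome 13) and 0.58 (DENND5A to ZBED5-AS1 on chromosome 11). After them came 0.57 (GPR141 to STK17A on chromosome 7) and 0.53 (IFT27 to TRIOBP on chromosome 22). At the low end were ERF to PLAUR on chromosome 19 (-0.77, 12 of 15 lower), COX18 to PARM1 on chromosome 4 (-0.77, 8 lower), NR4A1 to TNS2 on chromosome 12 (-0.76), SPTY2D1 to BDNF on chromosome 11 (-0.74), URI1 to PEPD on chromosome 19 (-0.74, 14 lower) and CRACR2B to IFITM10 on chromosome 11 (-0.72, 12 lower). The chromosome 4 window holds the CXC chemokine genes, and the chromosome 12 window holds keratin genes.

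**Figure D2:**
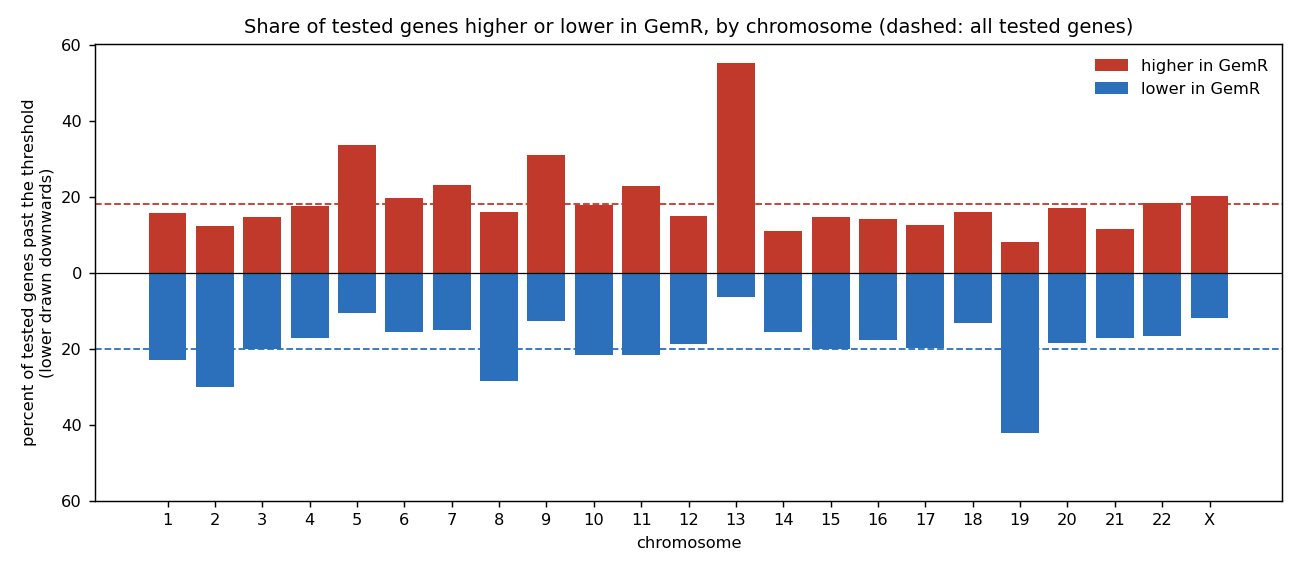
Percent of tested genes called higher (red, upwards) or lower (blue, downwards) in GemR than in Par, by chromosome, with dashed lines at the shares over all tested genes (18.1% and 20.1%). Chromosome 13 has the largest share of higher genes (55.5%) and chromosome 19 the largest share of lower genes (42.2%).

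Genes that carry gemcitabine into and through the cell differed far less than RRM1. The equilibrative nucleoside transporters SLC29A1 and SLC29A2 were both lower in GemR. SLC29A1 had 619, 680.5 and 615 normalized counts in GemR and 831, 880.2 and 859 in Par (-0.43 ± 0.082, adjusted p = 0.000413), and SLC29A2 had 308, 376 and 311 in GemR and 469, 476 and 473 in Par (-0.52 ± 0.083, adjusted p = 6.72e-05). Of 11 tested genes for activation, 1 was called higher and 1 lower, near or below the background shares. With single libraries left out it was 0 higher without GemR replicate 1 or 2 or Par replicate 1, 2 or 3, 2 higher without GemR replicate 3 and 0 lower without GemR replicate 3 or Par replicate 1. Deoxycytidine kinase, DCK, the first activating enzyme, averaged 462 ± 8.89 in GemR and 449 ± 29.9 in Par, a difference of 0.041 ± 0.10 that did not pass (adjusted p = 0.769). Of 11 tested genes for inactivation 3 were higher and 2 lower. Left-out libraries changed it to 0 lower without Par replicate 3 and 1 lower without GemR replicate 1 or Par replicate 1. NT5E, the surface 5'-nucleotidase CD73, had 768, 737 and 799 in GemR and 228, 281 and 239 in Par, clear of each other in every library (1.62 ± 0.080, 3.08-fold, adjusted p = 8.15e-12). ABCC4, a pump for nucleoside monophosphates, was higher by 0.75 ± 0.17.

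Among 14 tested genes of nucleotide synthesis, 4 were higher and 4 lower. Besides RRM1 these were the dUTPase DUT (0.57) and thioredoxin TXN (0.57) on the higher side. Lower were CAD (-0.55) and CTPS1 (-0.49), which make pyrimidines, and the thioredoxin reductase TXNRD1 (-0.46). RRM2, the small subunit that pairs with RRM1, had 2273, 2197 and 2207 normalized counts in GemR and 3096, 2923 and 2929.8 in Par (-0.42 ± 0.060, adjusted p = 1.67e-05), opposite to RRM1. The alternative small subunit RRM2B had -0.070 ± 0.12 (adjusted p = 0.688). DCK, RRM2 and RRM2B were picked for their roles after their values were seen.

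Genes of calcium entry other than STIM1 differed by less. Of 11 tested, STIM1 included, 3 were higher and 4 lower. ORAI2, a channel subunit, had 214, 259 and 295 normalized counts in GemR and 125, 169 and 153 in Par (0.77 ± 0.13, adjusted p = 7.65e-05). TRPC1, a further cation channel, averaged 34.6 ± 11.7 in GemR and 15.4 ± 1.88 in Par (1.07 ± 0.32, adjusted p = 0.0123). Its adjusted p was 0.0582 without GemR replicate 2. CRACR2B, a regulator of the ORAI channel that lies on the low side of the chromosome 11 pattern, was lower (-1.46 ± 0.23), as was SARAF, which slows calcium entry (-0.39 ± 0.065). ORAI1, the main channel subunit, and the second sensor STIM2, named for its role after its value was seen, had -0.10 ± 0.10 and -0.090 ± 0.10 and did not pass (adjusted p = 0.463 and 0.482).

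Calcium stores and pumps leaned lower, with 9 of 22 tested genes (40.9%) lower and 1 higher. Dropping 1 library gave 2 higher without GemR replicate 1 or Par replicate 2. ATP2A3, a SERCA pump, averaged 36.6 ± 5.61 in GemR and 87.2 ± 6.68 in Par (-1.24 ± 0.21), the inositol trisphosphate receptor ITPR2 had -0.99 ± 0.15 and the plasma membrane pump ATP2B1 -0.46 ± 0.077. MICU2, a regulator of mitochondrial calcium uptake on chromosome 13, was higher (0.90 ± 0.093). Of 20 tested genes of the calcineurin-NFAT pathway, through which calcium acts on transcription, 9 (45.0%) were lower and 1 higher. This became 0 higher without Par replicate 2 or 3. The transcription factor genes NFATC2 (-0.77 ± 0.19) and NFATC1 (-0.63 ± 0.17) and the kinase gene CAMK1D (-1.18 ± 0.20) were among the lower ones, though NFATC1 was not called with the 6 libraries alone (limma, adjusted p = 0.0628).

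The chemokines formed the pathway list with the lowest median of the 47, -1.92 over 9 tested genes against 0.0037 over all tested genes. Of the 9, 7 were lower and 0 higher. Chemokines are secreted proteins that draw leukocytes. Those of the CXC type that bind the receptors CXCR1 and CXCR2 lie near each other on chromosome 4 and are known targets of the transcription factor NF-kB. Of 6 genes taken from this cluster, which may not be all its members, 5 were lower in GemR and the sixth was not called. For this reason 120 bases before the start of each of the 6 are shown. They run from 130 to 11 bases upstream of the RefSeq start (GRCh38.p14, each in the direction of its gene), and the capitals mark the letters GGAATTTCC, a form of the NF-kB motif.
CXCL1, chr4:73869263-73869382, plus strand: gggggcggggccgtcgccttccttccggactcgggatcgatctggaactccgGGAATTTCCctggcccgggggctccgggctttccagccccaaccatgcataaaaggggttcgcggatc
CXCL2, chr4:74099206-74099325, minus strand: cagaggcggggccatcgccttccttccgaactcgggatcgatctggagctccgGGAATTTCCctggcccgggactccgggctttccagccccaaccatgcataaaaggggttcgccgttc
CXCL3, chr4:74038700-74038819, minus strand: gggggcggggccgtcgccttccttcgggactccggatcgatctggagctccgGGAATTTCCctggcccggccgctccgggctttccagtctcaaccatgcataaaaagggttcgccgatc
CXCL5, chr4:73998688-73998807, minus strand: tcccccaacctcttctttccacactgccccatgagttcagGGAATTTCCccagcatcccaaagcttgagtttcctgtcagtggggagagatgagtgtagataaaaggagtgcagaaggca
CXCL6, chr4:73836548-73836667, plus strand: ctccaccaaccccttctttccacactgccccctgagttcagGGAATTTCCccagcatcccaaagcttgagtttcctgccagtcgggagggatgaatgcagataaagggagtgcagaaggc
CXCL8, chr4:73740439-73740558, plus strand: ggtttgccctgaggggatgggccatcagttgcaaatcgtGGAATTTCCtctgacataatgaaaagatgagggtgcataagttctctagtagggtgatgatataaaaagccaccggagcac

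Each of the 6 promoters, taken as 250 bases before to 50 after the start, held these letters 1 time, 77 to 91 bases upstream. Searched on both strands, they occurred in 162 of 34961 RefSeq promoters of that length (0.463%). Over the 89 bases centred on the motif, CXCL1 and CXCL3 shared 92.1% of bases, CXCL5 and CXCL6 93.3%, CXCL1 and CXCL2 75.3%, and CXCL8 shared 24.7% to 34.8% with the others. A match of letters is a description of sequence, and binding was not measured.

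CXCL8, the most abundant of these genes, had 1364, 821 and 809 normalized counts in GemR and 2482, 4036 and 2312 in Par. Its log2 fold change was -1.56 ± 0.20 (2.94-fold lower in GemR, adjusted p = 4.43e-06). CXCL1 had 188, 109 and 121 in GemR and 437, 655 and 481 in Par (-1.92 ± 0.17, adjusted p = 3.88e-08). In both genes GemR replicate 1 was the highest of its group and still lay below every Par library. CXCL3 (-2.10 ± 0.25) and CXCL6 (-2.24 ± 0.43) were lower at low levels, with means of 14.6 ± 8.76 and 6.03 ± 2.72 in GemR and 59.4 ± 4.62 and 31.0 ± 6.43 in Par. CXCL2 had 34.5, 27.1 and 17.0 in GemR and 19.3, 47.5 and 23.4 in Par, overlapping groups (-0.14 ± 0.28, adjusted p = 0.738). CXCL1, CXCL2 and CXCL3 are close copies, so reads they share could be split between them. Away from the cluster, CXCR4, the receptor of CXCL12, had 100.2, 87.6 and 89.0 in GemR and 532, 476 and 533 in Par (-2.47 ± 0.11, adjusted p = 3.17e-12), and CCL20 had -0.70 ± 0.31 without passing (adjusted p = 0.0859). Its adjusted p was 0.00847 without GemR replicate 1, 0.0416 without Par replicate 1, 0.0482 without Par replicate 3.

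Among 18 tested cytokines and NF-kB feedback genes, 5 were higher and 4 lower. TNFAIP3, an enzyme that damps NF-kB, was lower (-1.18 ± 0.19, adjusted p = 7.66e-05) with 717, 584 and 631 in GemR and 1196, 1879 and 1358 in Par. IL1B averaged 4.10 ± 1.77 in GemR and 13.5 ± 5.74 in Par (-1.48 ± 0.41). On the higher side stood TNFAIP2 (1.66 ± 0.087, 1556, 1805 and 1731 in GemR and 513, 518 and 572 in Par), IL11 (1.40 ± 0.25) and TRAF1 (1.35 ± 0.34), the last not called by edgeR (adjusted p = 0.0501) or DESeq2 (0.0838).

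The prostaglandin genes moved apart from each other. Against the 47.2-fold higher PTGES, the inducible cyclooxygenase PTGS2, which supplies its substrate, had 379.7, 461 and 481 normalized counts in GemR and 981, 1195 and 1109.9 in Par (-1.31 ± 0.13, 2.49-fold lower in GemR, adjusted p = 1.67e-07). A second PGE synthase, PTGES2 (0.22 ± 0.092), was not called, though its adjusted p was 0.0145 without GemR replicate 3. Its adjusted p in limma was also 0.049 with library medians centred, 0.0289 with quantile normalization and 0.00258 with a term for transcript length. AKR1C3, which makes prostaglandin F2 alpha and also reduces steroids, had 286, 222 and 203 in GemR and 64.0, 46.0 and 45.8 in Par (2.17 ± 0.18, adjusted p = 1.62e-08), and PTGR1, a reductase that inactivates prostaglandins, was higher by 0.95 ± 0.11. Of the 13 tested genes of this group 4 were higher and 2 lower. The count was 7 higher without GemR replicate 3 and 1 lower without GemR replicate 1 or 2 or Par replicate 1 or 2.

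Enzymes that oxidise or reduce small molecules differed often: 12 of 27 tested (44.4%) were higher and 8 (29.6%) lower. The aldo-keto reductases AKR1C1 (1.92 ± 0.17), AKR1C2 (2.04 ± 0.16) and AKR1C3 were all higher, though as near-identical copies they could share reads. Retinaldehyde dehydrogenases went opposite ways. ALDH1A2 had 362, 447 and 444 normalized counts in GemR and 62.9, 77.2 and 68.3 in Par (2.57 ± 0.14, adjusted p = 3.64e-11), while ALDH1A1, described above, was nearly silent in GemR. NRF2 targets and redox genes divided into 8 higher and 10 lower of 26 tested (30.8% and 38.5%). With single libraries left out it was 5 higher without Par replicate 1. The ferritin chains differed in direction, with FTH1 higher (1.04 ± 0.10) and FTL lower (-1.09 ± 0.11), and the heme oxygenase HMOX1 was lower (-1.32 ± 0.26). Both ferritin genes have many pseudogenes that could share their reads.

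Efflux pumps showed no common direction, with 4 of 18 tested higher and 5 lower. ABCG2, a multidrug transporter, had 75.7, 88.5 and 73.9 normalized counts in GemR and 324, 328 and 350.1 in Par (-2.06 ± 0.15, 4.18-fold lower, adjusted p = 1.95e-09). ABCA3 (-1.66 ± 0.21) and ABCC1 (-0.72 ± 0.11) were also lower. ABCB1, which encodes P-glycoprotein, averaged 21.0 ± 2.35 in GemR and 30.6 ± 8.89 in Par and was not called (adjusted p = 0.117).

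Epithelial junction genes were mostly lower in GemR. Of 24 tested tight junction and polarity genes, 16 (66.7%) were lower and 3 higher, with a median log2 fold change of -0.60. CLDN7 had 660.3, 487 and 421 normalized counts in GemR and 2167, 2106 and 2065 in Par (-2.04 ± 0.12, 4.11-fold lower, adjusted p = 1.76e-10). The sealing claudins CLDN4 (-2.25 ± 0.24) and CLDN3 (-1.71 ± 0.16) and CLDN10 (-1.79 ± 0.29) went the same way. CLDN16 was higher from a low level, with means of 14.8 ± 2.94 in GemR and 4.48 ± 2.76 in Par. In adherens junctions and desmosomes 7 of 17 tested genes (41.2%) were lower and 2 higher. Left-out libraries changed it to 1 higher without GemR replicate 3 or Par replicate 1 or 3. CDH1, which encodes E-cadherin, had 81.3, 81.4 and 89.0 in GemR and 172, 263 and 179 in Par (-1.25 ± 0.14, adjusted p = 9.24e-07). The adhesion molecule EPCAM had 3386, 2428 and 2286 in GemR and 6486, 6379.9 and 5969 in Par (-1.24 ± 0.10, adjusted p = 7.82e-09). In bulk RNA fewer cells that express a gene and less RNA per cell cannot be told apart.

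Transcription and splicing factors of epithelial cells went in the same direction. Of 12 tested epithelial transcription and splicing factors 9 (75.0%) were lower and 0 higher, with a median of -0.48. Dropping 1 library gave 1 higher without GemR replicate 1. They include GRHL1 (-1.61 ± 0.13) and GRHL3 (-1.68 ± 0.27), which drive epithelial barrier genes, and the splicing factors ESRP2 (-1.01 ± 0.11) and ESRP1 (-0.49 ± 0.067). Among 20 tested mesenchymal genes 9 (45.0%) were higher and 2 lower. This became 1 lower without GemR replicate 1 or Par replicate 1 or 2. SNAI2, a repressor of E-cadherin, had 1573, 1327 and 1456 in GemR and 618, 773 and 691 in Par (1.07 ± 0.087, adjusted p = 1.44e-08), and the receptor kinase AXL (1.00 ± 0.076) and the actin-binding CALD1 (1.27 ± 0.15) were higher too. SNAI1, the related repressor, was lower, with means of 8.46 ± 1.29 in GemR and 22.0 ± 4.95 in Par (-1.27 ± 0.37).

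Keratins and lineage genes changed in part. Of 18 tested keratins 7 (38.9%) were lower and 3 higher. The count was 1 higher without GemR replicate 1 or Par replicate 3 and 5 higher without GemR replicate 3. KRT5, a basal keratin, had 1451, 1365 and 1407 normalized counts in GemR and 12337, 10456 and 11751 in Par (-3.03 ± 0.074, 8.16-fold lower, adjusted p = 1.98e-16). KRT13 (-1.29 ± 0.14) and KRT8 (-0.84 ± 0.090) were lower as well, and KRT4 was higher (1.52 ± 0.19). Of 16 tested genes of the classical subtype of pancreatic cancer and of pancreatic lineage, 9 (56.2%) were lower and 1 higher, with a median of -0.68. With single libraries left out it was 0 higher without GemR replicate 1 or Par replicate 3. GATA6, the transcription factor most tied to that subtype, had 80.2, 82.3 and 118 in GemR and 371, 374 and 411 in Par (-2.05 ± 0.12, adjusted p = 6.03e-11). TSPAN8 had 116, 105 and 82.4 in GemR and 1270.03, 1300.3 and 1056 in Par (-3.57 ± 0.13, adjusted p = 1.07e-13), and FOXA2 (-2.05 ± 0.20), CEACAM6 (-2.79 ± 0.17) and CEACAM5 (-1.89 ± 0.21) were lower. The basal-like subtype genes divided evenly, with 6 of 18 tested higher and 6 lower. VGLL3 (1.37 ± 0.39) was among the higher ones, and KRT6A (-2.09 ± 0.23) among the lower ones.

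Collagen genes were mostly lower in GemR, 12 of 19 tested (63.2%) against 2 higher. Left-out libraries changed it to 1 higher without GemR replicate 2 or Par replicate 1. COL1A1 had 998, 1221 and 1119 in GemR and 2032, 1925 and 2173 in Par (-0.88 ± 0.084, adjusted p = 1.23e-07), and COL1A2 had -2.55 ± 0.57 (5.86-fold lower), or -1.96 (3.88-fold lower) without GemR replicate 1. COL17A1, a transmembrane collagen of hemidesmosomes, went the other way with 1003, 1209 and 1327 in GemR and 244, 285 and 254 in Par (2.17 ± 0.092, adjusted p = 1.01e-12). COL3A1, COL1A1 and COL1A2 are also fibroblast markers, of which 4 were tested. The fourth, the smooth muscle actin gene ACTA2, was higher, with 32.3, 35.0 and 37.9 in GemR and 14.2, 5.94 and 12.7 in Par (1.67 ± 0.29, adjusted p = 0.000126). The summed level of the 11 fibroblast markers was 1215 to 1456 in GemR and 9352 to 9696 in Par, most of it COL3A1 in Par, while 6 of the 11 were at 0 in GemR and 4 in Par, and their part in the collagen result was not tested.

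Laminins and matrix glycoproteins had 5 of 20 tested genes higher and 6 lower. Dropping 1 library gave 2 higher without Par replicate 1 and 3 higher without GemR replicate 2. SPOCK1, a proteoglycan, had 40.1, 49.0 and 53.03 normalized counts in GemR and 870.03, 1023 and 1074 in Par (-4.36 ± 0.18, 20.5-fold lower, adjusted p = 8.59e-13). The laminin chain LAMB1 was lower (-1.41 ± 0.068). Tenascin C, TNC, had 66 reads in GemR and 2 in Par, a ratio of GemR to Par of 28.6 with a 95% counting interval of 7.61 to 241. Of 13 tested integrins 1 was higher, ITGB8 (1.62 ± 0.13), and 2 were lower, ITGA5 (-0.75 ± 0.084) and ITGB4 (-0.36 ± 0.10). ITGB4 lost its call with the 6 libraries alone (limma, adjusted p = 0.0830). This became 2 higher without Par replicate 2 and 3 higher without GemR replicate 1.

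Proteases and their inhibitors were mostly lower, 17 of 30 tested (56.7%) against 4 higher. SERPINB2, an inhibitor of plasminogen activators, averaged 3.63 ± 2.40 in GemR and 147 ± 69.1 in Par (-5.07 ± 0.59). The activator PLAT had 946, 983 and 918 in GemR and 2976, 3123 and 2875 in Par (-1.66 ± 0.10, adjusted p = 1.98e-10). Among collagenases and stromelysins, MMP1 was lower (-2.85 ± 0.14) and MMP10 higher (1.41 ± 0.29).

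**Figure D3:**
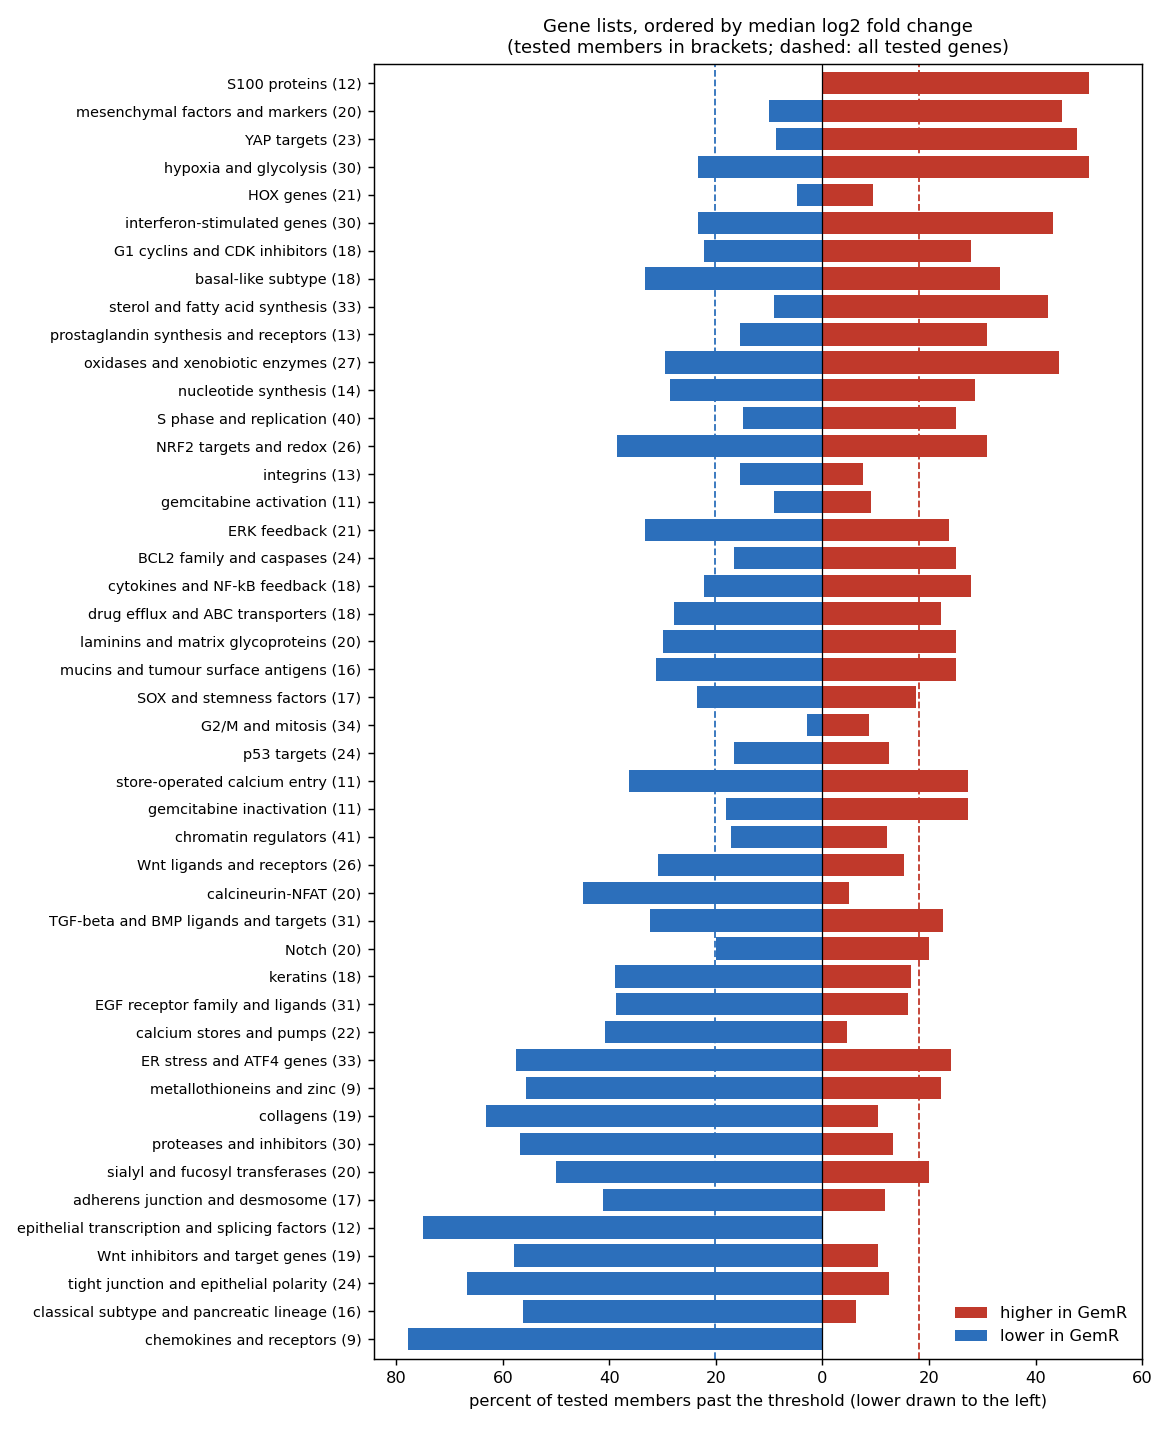
Percent of the tested members of each pathway list with at least 5 of them (number in brackets) called higher (red, to the right) or lower (blue, to the left) in GemR than in Par, with dashed lines at the shares over all tested genes (18.1% and 20.1%). Chemokines, epithelial factors and tight junction genes have the largest shares of lower members (77.8%, 75.0% and 66.7%), and S100 proteins and hypoxia and glycolysis genes the largest shares of higher ones (50% each).

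Wnt pathway genes leaned lower. Of 26 tested ligands and receptors 8 (30.8%) were lower and 4 higher. The count was 2 higher without Par replicate 2. LGR4, a receptor for the Wnt-enhancing R-spondins, had 421, 566 and 661 normalized counts in GemR and 3158, 2902 and 3192 in Par (-2.51 ± 0.13, 5.70-fold lower, adjusted p = 1.37e-11). The receptor FZD4 (-1.71 ± 0.13) and the ligand WNT7B (-0.85 ± 0.072) were lower, and FZD8 was higher (0.83 ± 0.19). Of 19 inhibitors and target genes 11 (57.9%) were lower and 2 higher. With single libraries left out it was 1 higher without GemR replicate 1 or 3 or Par replicate 1 or 2. RNF43, a ubiquitin ligase that removes Wnt receptors, averaged 18.1 ± 4.13 in GemR and 119 ± 25.8 in Par (-2.65 ± 0.26, adjusted p = 2.04e-07), and NKD2 (-1.64 ± 0.16) and TCF7L1 (-1.31 ± 0.27) were lower.

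In the TGF-beta and BMP family 7 of 31 tested genes were higher and 10 (32.3%) lower. Left-out libraries changed it to 4 higher without Par replicate 1. The activin subunit gene INHBB (1.73 ± 0.44) and the latent TGF-beta binding protein LTBP2 (1.41 ± 0.15) were higher, and ID2 (-1.80 ± 0.38) and the BMP antagonist CHRD (-1.17 ± 0.29) lower. With the 6 libraries alone INHBB was not called (limma, adjusted p = 0.0588), and without Par replicate 2 its log2 fold change was 0.91. Of 23 tested YAP targets 11 (47.8%) were higher and 2 lower. Dropping 1 library gave 1 lower without GemR replicate 1 and 4 lower without GemR replicate 3. NUAK2 (1.56 ± 0.11) and AMOTL2 (1.00 ± 0.10) were among the higher ones, while ANKRD1, a widely used readout of YAP activity, had 336, 368 and 343 in GemR and 1431, 1283 and 1417 in Par (-1.98 ± 0.085, adjusted p = 1.20e-12). Notch genes had 4 of 20 tested higher and 4 lower, with the targets HEYL (-2.29 ± 0.30) and NRARP (-1.09 ± 0.10) lower and DTX4 higher (1.19 ± 0.15).

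Of 31 tested genes of the EGF receptor family, other growth factor receptors and their ligands, 12 (38.7%) were lower and 5 higher. This became 8 higher without GemR replicate 1. The EGF receptor ligand EPGN averaged 7.01 ± 2.84 in GemR and 82.8 ± 0.731 in Par (-3.45 ± 0.34). LRIG1, which dampens the EGF receptor, had 621, 856 and 821 in GemR and 2230.4, 2409 and 2711 in Par (-1.69 ± 0.11, adjusted p = 3.68e-10). FGFBP1, which releases FGFs from the matrix, was higher (1.10 ± 0.13) and FGF2 lower (-1.04 ± 0.091). Genes that restrain ERK signalling had 7 of 21 lower and 5 higher, with DUSP8 at -1.84 ± 0.23. The count was 8 higher without GemR replicate 1.

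Enzymes that build mucin-type and sialylated sugars were lower in 10 of 20 cases (50%) and higher in 4. Beside ST6GALNAC1, GCNT3, which branches mucin sugars, averaged 4.87 ± 0.95 in GemR and 72.6 ± 14.1 in Par (-3.64 ± 0.52). ST6GAL1 (-1.51 ± 0.16) and FUT1 (-1.21 ± 0.17) were lower and ST3GAL4 higher (0.99 ± 0.082). Of the 16 tested mucins and surface antigens 4 were higher and 5 lower, among them MUC5AC (-1.59 ± 0.20) on the lower and MUC4 (1.37 ± 0.36) on the higher side.

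Several other groups had shares of higher genes above the background. Interferon-stimulated genes were higher in 13 of 30 cases (43.3%) and lower in 7. With single libraries left out it was 2 lower without Par replicate 2, 3 lower without GemR replicate 2 and 4 lower without Par replicate 1. BST2, a tether of budding viruses, had 121, 80.6 and 78.6 normalized counts in GemR and 14.2, 26.7 and 27.3 in Par (2.02 ± 0.26, adjusted p = 5.13e-06), and PSMB9, a subunit of the immunoproteasome, had 1.15 ± 0.20. Of 30 tested hypoxia and glycolysis genes 15 (50%) were higher and 7 lower. ADM lies at the end of the chromosome 11 stretch, NDRG1 had 0.59 ± 0.089, and the hexokinase HK2 (-0.87 ± 0.082) and GPI on chromosome 19 (-0.75 ± 0.056) were lower. Sterol and fatty acid synthesis had 14 of 33 (42.4%) higher, led by MSMO1 (0.80 ± 0.093) and INSIG1 (0.69 ± 0.14), and 3 lower. Left-out libraries changed it to 1 lower without GemR replicate 1 or Par replicate 3. Of 12 tested S100 genes 6 (50%) were higher and 0 lower, among them S100A6 (0.59 ± 0.14) and S100A10 (0.49 ± 0.11).

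ER stress and ATF4 genes were lower in 19 of 33 cases (57.6%) and higher in 8. ASNS, which makes asparagine, had 3469, 3211 and 2995 normalized counts in GemR and 5189.8, 5856 and 5222 in Par (-0.75 ± 0.064, adjusted p = 2.91e-08), and MTHFD2 of mitochondrial folate metabolism had -0.76 ± 0.054. Opposite to them, CHAC1, which degrades glutathione, was higher (1.32 ± 0.11), as was the transcription factor gene ATF3 (0.83 ± 0.16). GemR and Par were both in vehicle here, without thapsigargin.

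Called genes of the S phase, G2/M and G1 lists all differed by less than 2-fold. Higher genes made up 25.0% of the S phase list and 27.8% of the G1 list, above the background share. For S phase the calls were 10 higher and 6 lower of 40 tested genes, and 0 reached 2-fold. Dropping 1 library gave 3 lower without GemR replicate 1. RFC4 (0.44 ± 0.10) and GINS2 (0.41 ± 0.10) were on the higher side, and LIG1 (-0.52 ± 0.063) and POLD1 (-0.47 ± 0.072) on the lower. Of 34 tested G2/M genes 3 were higher and 1 lower, under the background shares. This became 2 lower without GemR replicate 3 and 7 lower without GemR replicate 1. Of 18 G1 cyclins and CDK inhibitors 5 were higher and 4 lower. The count was 8 higher without GemR replicate 1 and 2 lower without Par replicate 1 or 3. Of 24 p53 targets 3 were higher and 4 lower, with MDM2 (-0.62 ± 0.10) and BTG2 (-1.01 ± 0.12) lower. With single libraries left out it was 1 higher without GemR replicate 2 or Par replicate 3. For the BCL2 family and caspases the counts were 6 higher and 4 lower of 24. Left-out libraries changed it to 2 lower without Par replicate 1 or 3.

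Among 41 tested chromatin regulators 5 were higher and 7 lower, under the background shares, with the DNA methyltransferase DNMT3B (-1.11 ± 0.17) and the demethylating TET3 (-0.85 ± 0.21) lower and SMARCA1 higher (0.74 ± 0.067). TET3 lost its call with the 6 libraries alone (limma, adjusted p = 0.0561). Dropping 1 library gave 3 higher without GemR replicate 2 or Par replicate 3, 8 higher without GemR replicate 1 and 11 lower without GemR replicate 3. HOX genes had 2 of 21 higher and 1 lower. This became 1 higher without GemR replicate 1 or Par replicate 2, 0 lower without GemR replicate 3 or Par replicate 2 or 3 and 2 lower without GemR replicate 1 or Par replicate 1. Of 17 SOX and stemness factors 3 were higher and 4 lower, with SOX8 at -1.36 ± 0.23. Zinc transporters and metallothioneins had 5 of 9 lower and 2 higher, with SLC39A14 at -0.76 ± 0.083. The count was 3 lower without GemR replicate 1 or Par replicate 2.

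The thapsigargin libraries gave the same cell comparison in 6 other libraries, GemR siCont and Par siCont after 3 h of 500 nM thapsigargin. There 6314 genes (48.2%) were called, 3038 (23.2% of all tested genes) higher in GemR and 3276 (25.0%) lower. The shares below are set against these. Across the 13096 tested genes the log2 fold changes in thapsigargin and in vehicle had a Pearson correlation of 0.74 and a Spearman correlation of 0.62, as a description across genes, which are not independent replicates. Of the 2365 genes higher in vehicle 1481 (62.6%) were also called higher in thapsigargin and 125 (5.29%) lower. Of the 2635 lower in vehicle 1752 (66.5%) were also lower and 143 (5.43%) higher. For the 913 genes with at least 2-fold differences the shares were 78.3% in the same direction and 3.18% in the opposite one. The difference between the comparisons, thapsigargin minus vehicle, was called for 1938 genes (14.8%). Without GemR vehicle replicate 1 it was called for 2943.

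Of the genes at the extremes, the log2 fold changes in thapsigargin were 3.84 ± 0.10 for STIM1, 4.06 ± 0.059 for RRM1, 4.14 ± 0.34 for MAOA, -5.22 ± 0.12 for COL3A1 and -7.70 ± 0.46 for CXCL5. SP6 differed between the comparisons. Its normalized counts in vehicle were 111, 109 and 103 in GemR and 12.2, 13.4 and 7.80 in Par, and its log2 fold change was 1.84 ± 0.18 in thapsigargin and 3.20 ± 0.18 in vehicle (difference -1.36 ± 0.25, adjusted p = 0.000807). PTGES had 6.17 ± 0.10 in thapsigargin and 5.56 ± 0.10 in vehicle (difference 0.61 ± 0.15, adjusted p = 0.00747). For the other 18 of the 20 genes the difference was not called, which does not show that the comparisons were alike for them. Some genes described above, picked here after their values were seen, did not keep their difference. CLDN4 had -2.25 in vehicle and 0.95 in thapsigargin, CXCL1 -1.92 and 0.81, CXCR4 -2.47 and 0.13, and SNAI2 1.07 and 0.017. Not called in thapsigargin were CDH1 (-1.25 in vehicle and -0.30 in thapsigargin), PTGS2 (-1.31 and -0.16) and SLC29A1 (-0.43 and 0.049). CLDN3 (-1.71 and 0.14), CALD1 (1.27 and -0.29) and TNFAIP3 (-1.18 and -0.10) were not called there either. The difference between the comparisons was called for each of these genes. Others kept their difference between GemR and Par, such as CLDN7 (-2.04 and -1.69), KRT5 (-3.03 and -2.59) and COL17A1 (2.17 and 2.38).

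**Figure D4:**
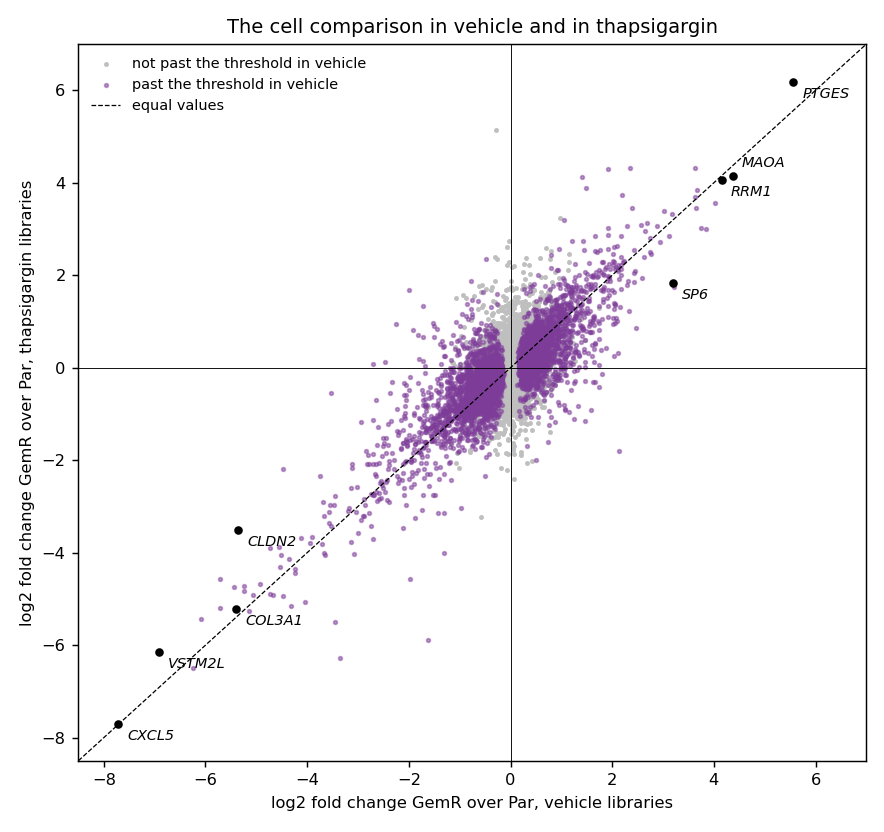
Log2 fold change of GemR over Par between the thapsigargin libraries (vertical) against that between the vehicle libraries (horizontal) for the 13096 tested genes, with genes called in vehicle in purple and a dashed line at equal values. PTGES, RRM1 and MAOA lie at the upper right and CXCL5, VSTM2L and COL3A1 at the lower left, while SP6 lies below the line, with a difference of -1.36.

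The authors' deposited tables hold no comparison of these groups itself, but their difference is implied by 2 of them, GemR thapsigargin against Par vehicle and GemR thapsigargin against GemR vehicle. The log2 fold changes of the authors' deposited tables gave 4.16 for RRM1, 3.69 for STIM1 and 5.58 for PTGES in this way. Over 10526 genes with both vehicle means at 50 or more, the median absolute gap between the values of the authors' deposited tables and those of the fit was 0.00675. Both rest on the same libraries, so a small gap is no separate evidence. Genes close to silent in GemR had larger gaps, with -8.59 implied and -6.10 in the fit for LRRC61, and -8.20 and -6.92 for VSTM2L.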

How the data were processed

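The labels' protocols name QIAzol for the RNA and the TruSeq RNA Library Prep Kit v2, with 500 ng of input. The submitters' processing notes list STAR 2.6.0c, HTSeq 0.11.1, DESeq2 and hg38, and the gene annotation is not given in the sources used here. For 18 libraries the authors deposited normalized counts, a signal they made by dividing each read count by the size factor of its library. In every column 100% of positive values came out whole in units of the smallest step (within 0.01), so whole reads could be recovered, 8922439 to 16519239 in a library. Tables of the authors' own comparisons give log2 fold changes and p-values, per the file headers, and 2 of these were read. Every column was matched by its name, leaving 0 unused.

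From the normalized counts, log2(value + 1) was modelled in limma 3.58.1 (R 4.3.3, trended prior) with a mean for each of the 6 groups and 12 residual degrees of freedom. Genes below a mean of 10 were left out, which kept 13096. Tests were two-sided. Simulated tables of 13096 genes gave back 65.2% of true changes of 0.5 (log2), 98.5% of those of 1 and 100% of those of 2. For the vehicle comparison they gave 32 false calls in 3 runs. Each run held 200 changed genes, placed among genes with a mean of at least 50. Counts were drawn for each gene independently, without the trend of GemR replicate 1 with transcript length, so these rates may not hold for the data. The alternatives, which include edgeR 4.0.16 and DESeq2 1.42.0 on recovered reads, are in the closing section.

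The libraries compared, the gene lists (47 of pathways, 5 of markers) and the alternatives were chosen with earlier results of these data known. The rule for named genes took RRM1 with its neighbour STIM1, 10 genes from each end of the ranking by log2 fold change (called, groups apart, 1 mean at 50 or more), up to 6 called and 2 other members of a list, and genes within 2 Mb of RRM1. Not all are named, and genes of the chromosome 11 stretch and at window edges were added after the values were seen. GENCODE 29 gave positions for 12419 tested genes, and RefSeq (GRCh38.p14) the promoters. Figures used matplotlib 3.10.9.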

Additional observations from a re-analysis of the deposited data

Results flagged for a closer look

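Among the 20 genes with the largest differences in vehicle, 2 had a called difference between the comparisons in thapsigargin and in vehicle. Over all tested genes the share called was 14.8%. The 20 genes were ranked by their vehicle values, which also enter this test, so the count is a description. For SP6 the log2 fold change in thapsigargin minus that in vehicle was -1.363 (standard error 0.25, adjusted p = 0.000807): SP6 was higher in GemR in both conditions, with means of 60.7 ± 4.45 in GemR and 16.4 ± 2.67 in Par in thapsigargin and of 108 ± 4.25 in GemR and 11.1 ± 2.93 in Par in vehicle. For PTGES it was 0.611 (standard error 0.15, adjusted p = 0.00747), with means of 2654 ± 99.3 in GemR and 36.1 ± 6.13 in Par in thapsigargin and of 2881 ± 244 in GemR and 60.02 ± 5.56 in Par in vehicle.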

How the results depend on the processing

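The number of called genes in vehicle was 5000 over the 18 libraries. It was 3129 in limma on the 6 libraries alone, 3169 in edgeR and 3325 in DESeq2. Of these calls, 99.5% to 99.8% were among the 5000 in the same direction, with 0 in the opposite one. The shared calls made up 62.3%, 63.1% and 66.4% of the 5000, in the same order of fits. Higher genes numbered 1338, 1416 and 1469 in those fits, and edgeR called 1753 lower genes. A term for the slope on transcript length gave 7026 calls. A minimum mean of 50 left 505 genes of at least 2-fold, since fewer genes were tested. With each of the 6 libraries left out in turn, called genes ranged from 4068 to 5235, those at least 2-fold from 914 to 949, and calls in thapsigargin from 6201 to 7247. The difference between the comparisons ranged from 1626 to 2943, the highest without GemR replicate 1, and was 3835 with the length term; the cause was not tested.

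Of 185 genes named in the text 173 were called. The naming rule favoured called genes with large differences, so these counts do not describe all tested genes, of which 38.2% were called. A minimum mean of 50 left 29 of the 173 untested, and of the 144 tested under all 19 alternatives 141 were called in each. The folds of called genes moved by over 1.5 times for 15 genes with a pseudocount of 5, 4 with 0.5, 6 in edgeR and 7 in DESeq2, and for COL1A2, CXCL5 and INHBB when 1 library was left out. INHBB, ITGB4, NFATC1 and TET3 lost their call with the 6 libraries alone (adjusted p = 0.0588, 0.0830, 0.0628 and 0.0561), and ITGB4, NFATC1, TET3 and TRAF1 in edgeR (0.0920, 0.0523, 0.0657 and 0.0501). DESeq2 did not call ITGB4, NFATC1 and TRAF1 (0.0792, 0.0741 and 0.0838), and TRPC1 lost it without GemR replicate 2 (0.0582). Signs turned for 3 genes without a call: with 1 library left out, the log2 fold change of CXCL2 ranged from -0.39 to 0.24, that of DCK from -0.0115 to 0.0838 and that of RRM2B from -0.12 to 0.0234. Of 1786 counts for lists and alternatives, 1558 lay within 1.5 times the reported count.

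Deviations of same-numbered libraries had correlations of 0.13, -0.079 and 0.20, and 4 of 6 libraries correlated best with their own number. With 3 libraries in each group, these values cannot show whether the replicate numbers pair the libraries. With the number as a block 5190 genes were called. Counting error limits genes near the minimum mean, where a few reads decide the ratio.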
